A study of Bos taurus with 8 samples.

Results

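Rumen fluid of the same 4 ruminally cannulated, non-lactating Holstein cows (mean age 10 years) was collected on 2 diets, with 1 small RNA library for each sample. The forage libraries came from day 7 of a diet with 0% concentrate, and the libraries of the high-grain (HG) diet from the first day with 65% concentrate, both taken 4 h after the morning feeding, with 4 libraries per diet. The cows reached the HG diet by a step-wise adaptation over 1 week. Every cow passed from the forage to the HG diet, so diet and sampling time cannot be told apart. The miRNAs bta-miR-146a, bta-miR-146b and bta-miR-155, chosen by name as inflammation miRNAs described as induced with NF-kB signalling, are described here. They were 3 of the 565 miRNA entries listed in the deposited tables, and 3 of 3 were among the 377 entries (268 bovine and 109 human) that reached 10 reads in any library.

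In leukocytes, endotoxin and other microbial ligands of Toll-like receptors activate the transcription factor NF-kB, and all 3 miRNAs are described as induced in this response. miR-146a and miR-146b are encoded on different chromosomes and repress the adaptor proteins TRAF6 and IRAK1 of the same pathway, and are therefore described as a negative feedback. miR-155 is processed from the transcript of the BIC gene, is abundant in activated macrophages and lymphocytes, and represses SOCS1 and the phosphatase SHIP1, which restrain inflammatory signalling. Feeding of grain is known to raise free endotoxin in the rumen, and the comparison of the diets asks whether the reads of these miRNAs in the fluid differed after the change of feed.

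In the bovine genome build UMD3.1, the mature bta-miR-146a lay on the plus strand at chr7:74185055-74185078. The mature bta-miR-146b lay on the plus strand at chr26:22930915-22930938, and the mature bta-miR-155 on the minus strand at chr1:10227279-10227301. By gene names in RefSeq's ARS-UCD2.0 table, whose coordinates were not used, MIR146A lies between PTTG1 and ATP10B, MIR146B next to CUEDC2, and MIR155 next to MRPL39. None of the 3 genes lies inside another gene of that table. The tables also listed hsa-miR-146b-5p and hsa-miR-155-5p, the human homologues, at the loci of bta-miR-146b and bta-miR-155. Their read counts were identical to those of the bovine entries in 8 of 8 libraries, so they are the same reads and are not described separately.

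The libraries held 331864 to 522804 miRNA reads on the forage diet and 300116 to 390774 on the HG diet, and miRNA reads made up 17.4% ± 9.27 (SD, n = 4) and 13.7% ± 9.41 (SD, n = 4) of all reads, respectively. HG replicate 2 differed from the other 7 libraries in its general composition, with a median ratio to their mean of 0.877 over 308 entries with at least 100 reads. The mean level and the diet effect of each of the 3 miRNAs are therefore also given without it. Levels are given as RPM, the reads in 1000000 miRNA reads of the same library, unless stated otherwise. For single libraries, 95% Wilson intervals are given, which cover the counting error of reads alone and not the variation between cows or preparations. Copies of 1 molecule made by PCR count as separate reads, so the intervals can be too narrow.

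All 3 miRNAs had reads in 8 of 8 libraries. Over the 8 libraries bta-miR-146a had 3346 reads and ranked 85 among the 268 bovine entries, bta-miR-146b had 1082 reads and ranked 122, and bta-miR-155 had 1013 reads and ranked 124. bta-miR-146a was thus the most abundant of the 3, and the other 2 stood close to each other in the middle of the ranking. The mature sequences are of nearly the same length (23 or 24 nucleotides), but how well each was captured in the libraries was not measured, so the order is one of reads.

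bta-miR-146a, the NF-kB induced repressor of TRAF6 and IRAK1, had 460, 497, 552 and 311 reads in forage replicates 1 to 4 and 277, 489, 370 and 390 reads in HG replicates 1 to 4. In RPM this was 931, 951, 1210 and 937 on the forage diet and 923, 1455, 947 and 1005 on the HG diet. The highest values were those of HG replicate 2 (interval 1331 to 1589) and forage replicate 3 (1114 to 1316), whereas the other 6 libraries lay between 923 and 1005. Both the lowest and the highest library were on the HG diet, so the range of the forage libraries lay within that of the HG libraries. The mean was 1007 ± 136 RPM (SD, n = 4) on the forage diet and 1082 ± 251 RPM (SD, n = 4) on the HG diet, and 958 ± 42.1 RPM on the HG diet without HG replicate 2. Without that library the HG mean was therefore below the forage mean, which still held forage replicate 3. The other forage libraries, at 931 to 951 RPM, lay below this HG mean. Its rank among bovine entries was 82 to 92 on the forage diet and 75 to 96 on the HG diet.

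bta-miR-146b, of the same family, had 168, 175, 153 and 105 reads on the forage diet and 104, 86, 128 and 163 reads on the HG diet. This was 340, 335, 335 and 316 RPM in forage replicates 1 to 4 and 347, 256, 328 and 420 RPM in HG replicates 1 to 4. The forage libraries lay close together and within the range of the HG libraries, which had their lowest value in HG replicate 2 (interval 207 to 316) and their highest in HG replicate 4 (360 to 490). The mean was 332 ± 10.4 RPM (SD, n = 4) on the forage diet and 337 ± 67.5 RPM (SD, n = 4) on the HG diet, or 365 ± 48.8 RPM without HG replicate 2. Its rank was 122 to 124 on the forage diet and 118 to 133 on the HG diet.

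bta-miR-155, the miRNA of activated macrophages and lymphocytes, had 157, 174, 159 and 103 reads on the forage diet and 94, 74, 134 and 118 reads on the HG diet. The levels were 318, 333, 349 and 310 RPM in forage replicates 1 to 4 and 313, 220, 343 and 304 RPM in HG replicates 1 to 4. HG replicate 2 was the lowest library (interval 175 to 276), and the other 7 libraries lay between 304 and 349 RPM with overlap of the diets. The mean was 327 ± 17.0 RPM (SD, n = 4) on the forage diet and 295 ± 52.6 RPM (SD, n = 4) on the HG diet, or 320 ± 20.3 RPM without HG replicate 2. Its rank was 122 to 125 on the forage diet and 121 to 137 on the HG diet, with the rank of 137 in HG replicate 2.

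**Figure D1:**
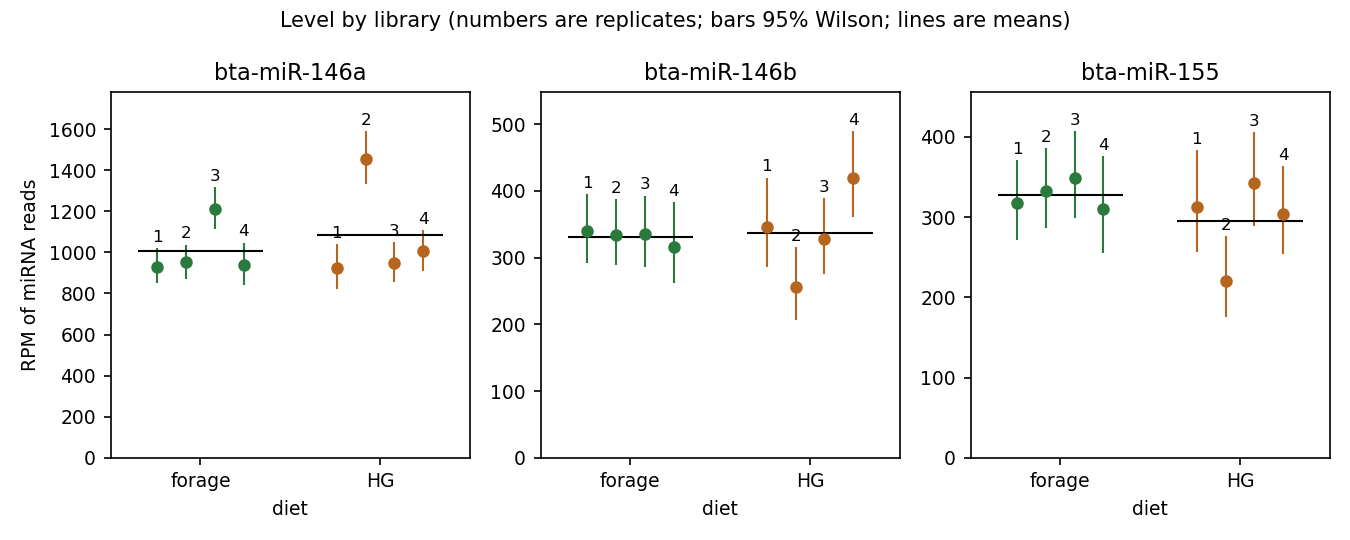
RPM (relative to the miRNA reads) of bta-miR-146a, bta-miR-146b and bta-miR-155 in each library (numbers are replicates), with 95% Wilson intervals and the mean of each diet as a line. HG replicate 2 was the highest library for bta-miR-146a (1455 RPM) and the lowest for bta-miR-146b (256 RPM) and bta-miR-155 (220 RPM), and the diets overlapped for each miRNA.

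bta-miR-146a exceeded bta-miR-146b by 2.74 to 3.61 times on the forage diet and by 2.39 to 5.69 times on the HG diet. The ratio of 5.69 was that of HG replicate 2, and the other 7 libraries gave 2.39 to 3.61. Against bta-miR-155, bta-miR-146a was 2.86 to 3.47 times as high on the forage diet and 2.76 to 6.61 times as high on the HG diet, again with the highest ratio in HG replicate 2 and at most 3.47 in the others. bta-miR-146a was thus above the other 2 miRNAs in 8 of 8 libraries. The ratio of bta-miR-146b to bta-miR-155 was 0.955 to 1.38, and bta-miR-146b was the higher in 6 of 8 libraries. The ratio of 1.38 was that of HG replicate 4, in which the intervals (360 to 490 and 254 to 364 RPM) overlapped only at their ends. The order of these 2 thus differed between libraries.

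The mature miR-146a and miR-146b are near-identical, and the mapping allowed mismatches, so reads could be counted for both. From the reads divided among the entries they map to, bta-miR-146a and bta-miR-146b had 15, 12, 13 and 4 reads in common in forage replicates 1 to 4 and 8, 4, 10 and 14 in HG replicates 1 to 4. These were 0.818% to 3.59% of the reads of bta-miR-146a and 3.81% to 8.93% of those of bta-miR-146b. Counting only its own reads, bta-miR-146a had 901, 928, 1182 and 925 RPM on the forage diet and 896, 1443, 921 and 969 RPM on the HG diet. bta-miR-146b then had 310, 312, 307 and 304 RPM on the forage diet and 320, 244, 302 and 384 RPM on the HG diet. The libraries with the highest and the lowest value of each miRNA on the HG diet were the same as with all reads. bta-miR-155 shared its reads with the human entry alone. With only its own reads, bta-miR-146b was above bta-miR-155 in 3 of 8 libraries, in place of 6 of 8 with all reads.

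The tables also give the number of distinct read sequences behind each entry, which differ in their ends or in single bases. bta-miR-146a had 18 to 24 distinct sequences per forage library and 13 to 22 per HG library. HG replicate 2 had the fewest, so that each stood for 37.6 reads on average, against 17.3 to 26.3 in the other 7 libraries. Over all bovine entries the same measure was 81.8 reads in HG replicate 2 and 69.0 to 89.1 in the others. bta-miR-146b had 8 to 13 distinct sequences on the forage diet and 7 to 11 on the HG diet, and bta-miR-155 had 16 to 21 and 8 to 16.

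Same-numbered libraries were taken here as 1 cow, although the data do not show this pairing. Within the cows, the level of bta-miR-146a on the HG diet was 0.992, 1.53, 0.782 and 1.07 times that on the forage diet in cows 1 to 4. For bta-miR-146b the ratios were 1.02, 0.764, 0.976 and 1.33. Each of these miRNAs was thus higher on the HG diet in 2 cows and lower in 2, and cow 2 moved in opposite directions for the 2 family members. For bta-miR-155 the ratios were 0.986, 0.661, 0.984 and 0.980, a lower level in 4 of 4 cows, with cow 2 apart and the other 3 cows between 0.980 and 0.986. In these 3 cows the level on each diet lay inside the Wilson interval of the other diet, so the difference was not detectable at this depth. Of all 377 entries, 8.75% were lower in 4 of 4 cows. The count for bta-miR-155 rests on the pairing, because HG replicate 3 (343 RPM) was above forage replicates 1, 2 and 4 (318, 333 and 310 RPM). Relative to all reads of the library instead of miRNA reads, bta-miR-155 was lower in 2 of 4 cows.

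**Figure D2:**
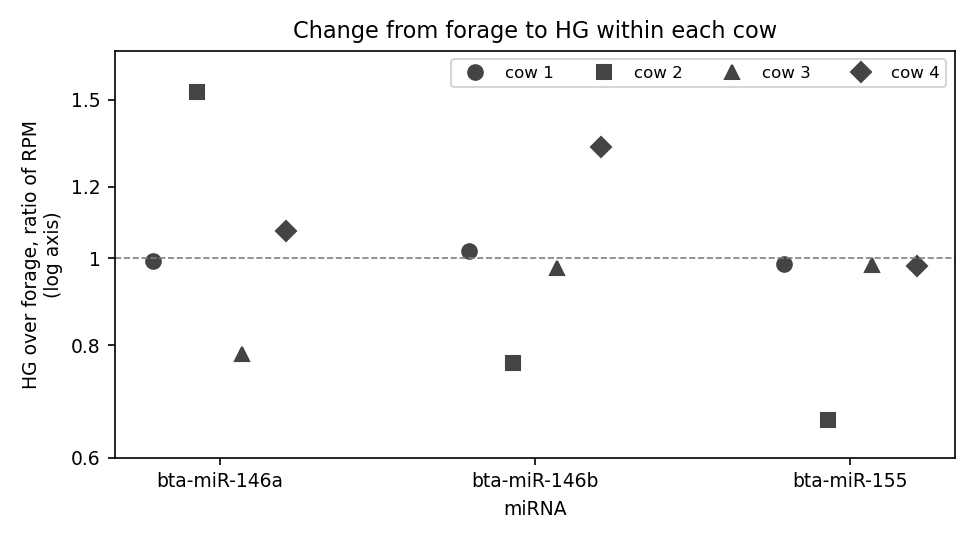
Ratio of the RPM on the HG diet to the RPM on the forage diet in each of the 4 cows, with same-numbered libraries taken as 1 cow (log axis, dashed line at no change). bta-miR-146a and bta-miR-146b lay on both sides of the line, and bta-miR-155 was below it in 4 of 4 cows (2 of 4 relative to all reads), with cow 2 at 0.661 and the other 3 between 0.980 and 0.986, where the Wilson intervals of both diets overlap.

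For the effect of diet, a quasi-likelihood model of edgeR with terms for cow and diet was fitted to all 377 entries, with Benjamini-Hochberg adjustment over them. bta-miR-146a had a log2 fold change of 0.14 (standard error 0.19, 95% interval −0.34 to 0.61, edgeR adjusted p = 0.830). For bta-miR-146b it was 0.05 (standard error 0.13, 95% interval −0.26 to 0.37, edgeR adjusted p = 0.889). For bta-miR-155 it was −0.12 (standard error 0.11, 95% interval −0.39 to 0.16, edgeR adjusted p = 0.798). None of the 3 miRNAs passed the test, and the intervals give the size of change that the data leave possible in each direction. Of the 377 entries, 0 (0%) had an edgeR adjusted p under 0.05 and 9 (2.39%) an unadjusted p under 0.05, the members not among them. DESeq2 called 0 entries as well, with 3 at an unadjusted p under 0.05. The median log2 fold change of all entries was 0.03, with quartiles of −0.11 and 0.17, and the estimates of bta-miR-146a and bta-miR-146b lay between these quartiles, and that of bta-miR-155 was at the lower one.

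The exact permutation test of the differences within cows, which flips the sign of each cow and is two-sided, has with 4 cows a smallest possible p that rounds to 0.13. The mean difference was 75.1 RPM for bta-miR-146a (exact p = 0.75), 5.84 RPM for bta-miR-146b (exact p = 0.88) and −32.3 RPM for bta-miR-155 (exact p = 0.13). The p of bta-miR-155 is the smallest that this test can reach, and it rests on the pairing by replicate number. Without pairing, the exact permutation p of bta-miR-155 was 0.286. Relative to all reads of the library, the mean differences were −34.3, −12.8 and −14.6 RPM, with an exact p of 0.75, 0.625 and 0.625, so the direction turned for bta-miR-146a and bta-miR-146b. The estimates depended on single libraries. Without HG replicate 2, in the model with diet alone, the log2 fold change was −0.079 for bta-miR-146a, 0.13 for bta-miR-146b and −0.042 for bta-miR-155. Without cow 2 it was −0.10 for bta-miR-146a and −0.024 for bta-miR-155, and without cow 4 it was −0.078 for bta-miR-146b.

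**Figure D3:**
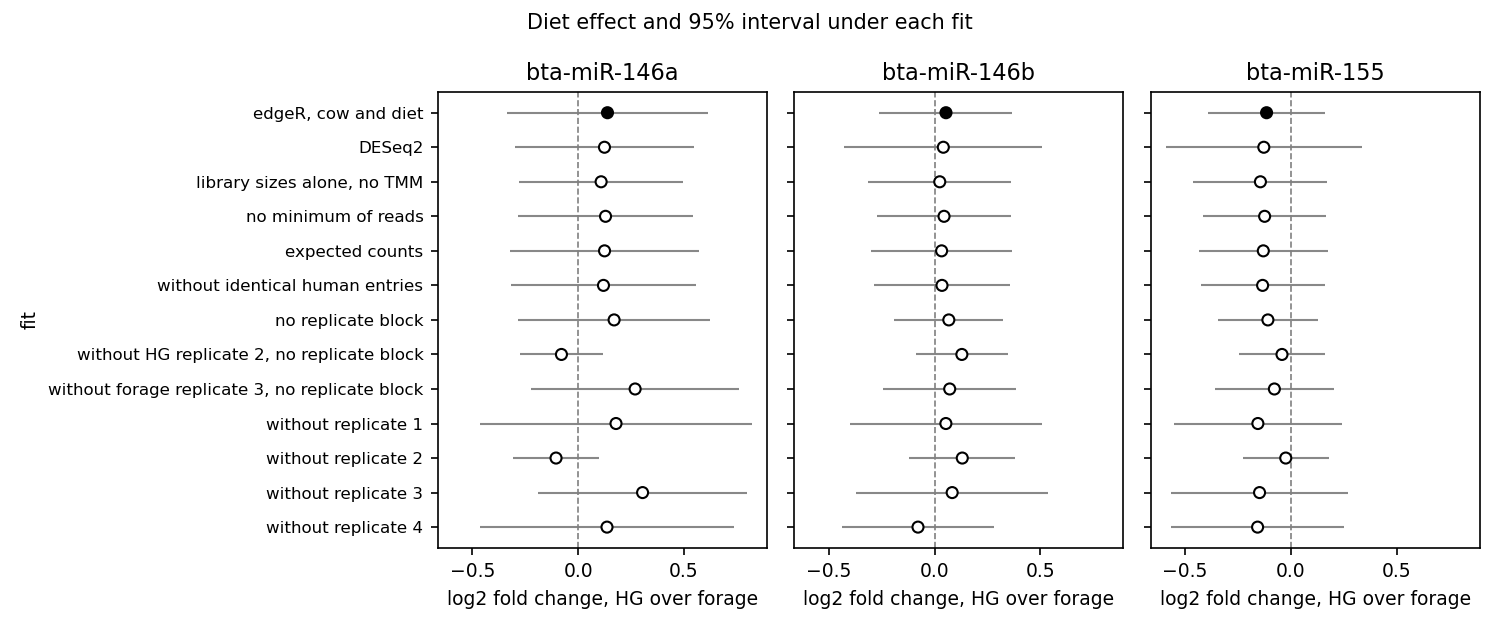
Log2 fold change of the HG diet over the forage diet with its 95% interval for each miRNA under the fit with cow and diet (filled) and under the alternatives (open), on 1 common horizontal scale. Every interval includes 0, and the estimate of bta-miR-146a was −0.10 without replicate 2 and 0.30 without replicate 3.

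HG replicate 2 also stood apart in miRNAs in general use as cell type markers. The 5 leukocyte markers (miR-223, miR-142-5p, miR-142-3p, miR-150 and miR-342) summed to 23529 to 23889 RPM on the forage diet and 18667 to 23791 RPM on the HG diet, with the value of 18667 in HG replicate 2. The 3 erythrocyte markers (miR-451, miR-144 and miR-486) summed to 149756 RPM in this library and 198457 to 206066 RPM in the other 7. The 6 tested epithelial markers, of 7 in the list, summed to 27955 RPM against 20407 to 21317 RPM, and the 5 markers of stroma and smooth muscle to 89700 RPM against 64939 to 69990 RPM. In the library with the highest bta-miR-146a and the lowest bta-miR-155, the sums of leukocyte, erythrocyte, epithelial and stromal markers were thus at 0.789, 0.741, 1.34 and 1.34 times the mean of the other 7 libraries. The members of a list did not all move alike. HG replicate 2 was the lowest of the 8 libraries for 4 of the 5 leukocyte markers and 3 of the 3 erythrocyte markers, whereas miR-142-3p was highest there, at 1238 RPM against 966 to 1106 RPM. It was the highest library for 4 of the 6 epithelial markers and 3 of the 5 markers of stroma and smooth muscle. miR-200b was lowest there, at 1892 RPM against 2006 to 2189 RPM, and miR-200c, miR-199a-3p and miR-214 lay within the range of the others.

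The sums were carried by the most abundant members. Among leukocyte markers, bta-miR-142-5p had 8481 RPM in HG replicate 2 and 11088 to 11490 RPM in the other 7 libraries, and bta-miR-150 had 4748 RPM and 5694 to 6039 RPM. bta-miR-451, the most abundant erythrocyte miRNA, had 126252 RPM against 165599 to 173319 RPM, and bta-miR-486 had 20889 RPM against 28431 to 29569 RPM. Higher values in HG replicate 2 were found for the epithelial bta-miR-205, with 13898 RPM against 9060 to 9715 RPM, and for bta-miR-143 of smooth muscle, with 80582 RPM against 58087 to 63030 RPM. The next most abundant members of these lists did not stand apart, with 3796 RPM against 3481 to 3851 RPM for bta-miR-200c and 5075 RPM against 4533 to 5214 RPM for bta-miR-199a-3p. No tested marker was at 0 in any library. Their part in the results for the 3 miRNAs was not tested, and in whole fluid fewer cells of a type and less RNA per cell cannot be told apart.

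Relative to the mean of the other 7 libraries, HG replicate 2 had 1.47 times the level of bta-miR-146a, 0.740 times that of bta-miR-146b and 0.679 times that of bta-miR-155. Of 308 entries with at least 100 reads, 13.6% had a ratio at or above that of bta-miR-146a and 20.5% a ratio at or below that of bta-miR-155. The 308 include the 3 miRNAs and human entries, many with the reads of a bovine entry, so these are not shares of distinct miRNAs. The ratios of entries near 100 reads also carry a larger counting error. Within these limits, departures of this size were shared by many other entries of the library. Forage replicate 3, the other library with a high bta-miR-146a, differed in this respect. It had 1.29 times the bta-miR-146a of the other 3 forage libraries, a ratio reached by 3.57% of the 308 entries (11 entries). The median ratio of that library was 0.996, its ratios for bta-miR-146b and bta-miR-155 were 1.02 and 1.09, and its sums of the 4 marker lists were 0.999 to 1.01 times the mean of the 7 libraries.

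**Figure D4:**
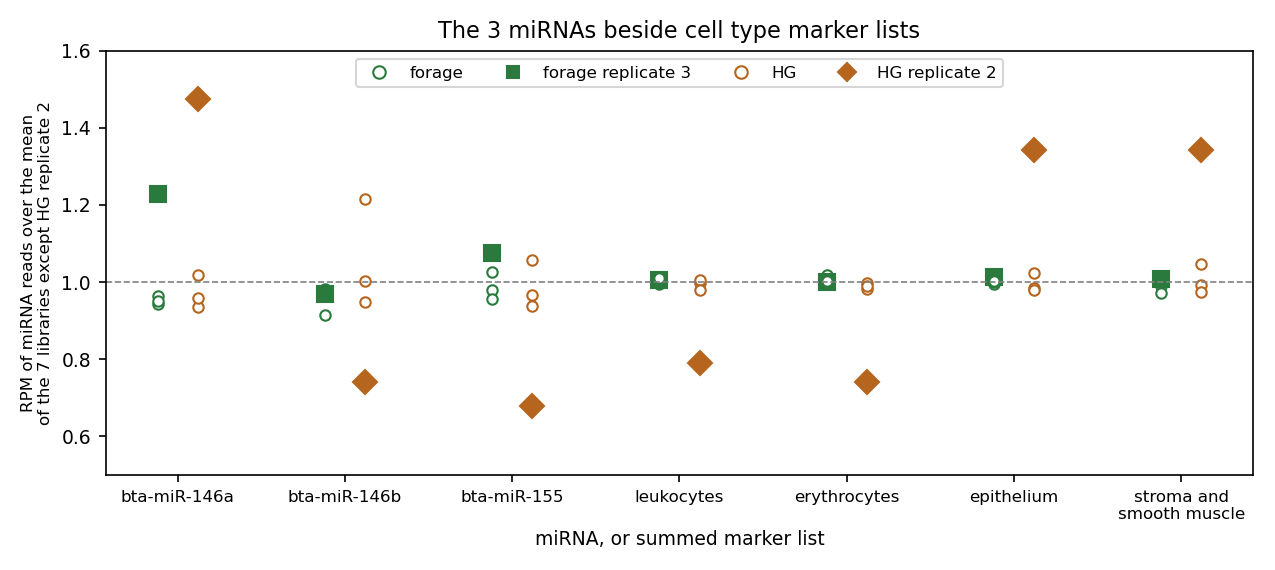
RPM of the 3 miRNAs and summed RPM of 4 cell type marker lists in each library, divided by the mean of the 7 libraries other than HG replicate 2. HG replicate 2 (diamonds) was at 1.47 for bta-miR-146a, 0.679 for bta-miR-155, 0.789 for leukocyte markers and 1.34 for epithelial markers, while forage replicate 3 (squares) departed for bta-miR-146a with marker lists at 0.999 to 1.01.

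Other miRNAs widely described to respond to endotoxin were described as a list of 10, of which 8 were tested and miR-187 and miR-212 had too few reads. By edgeR's adjusted p, 0 of the 8 rose and 0 fell, against 0% of all entries. Their log2 fold changes were above 0 for 4 and below 0 for 4, with a median of −0.03 beside 0.03 over all entries. The most abundant, bta-miR-21-5p, had 118471 ± 1085 RPM (SD, n = 4) on the forage diet and 127044 ± 18396 RPM (SD, n = 4) on the HG diet, with 154451 RPM in HG replicate 2. bta-let-7i, which represses the endotoxin receptor TLR4, had 10899 ± 244 and 10773 ± 191 RPM (SD, n = 4). bta-miR-9-5p had 6025 ± 266 RPM (SD, n = 4) and 5649 ± 1060 RPM (SD, n = 4), with 4156 RPM in HG replicate 2 and 5699 to 6589 RPM in the other 7 libraries. bta-miR-223, a miRNA of neutrophils that is also in the leukocyte list, had 3542 ± 139 RPM (SD, n = 4) and 3274 ± 521 RPM (SD, n = 4), with 2514 RPM in HG replicate 2 and 3435 to 3739 RPM in the others. The estimate farthest from 0 was that of bta-miR-132, singled out after its values were seen, with 55.2 ± 12.4 RPM (SD, n = 4) on the forage diet, 35.7 ± 17.4 RPM (SD, n = 4) on the HG diet, 17.8 RPM in HG replicate 2 against 30.0 to 66.8 RPM in the other 7 libraries, and a log2 fold change of −0.64 (standard error 0.31, edgeR adjusted p = 0.788).

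The miRNAs with a pattern most like each of the 3 were found by Pearson's r of log2 CPM over the 8 libraries, among bovine entries with at least 100 reads that share no reads with it, as a description without a test. The points share the libraries and their composition, and HG replicate 2 weighed heavily. For bta-miR-146a these were bta-let-7a-5p (r = 0.962), bta-miR-374a (0.951), bta-miR-152 (0.947), bta-miR-6119-3p (0.943) and bta-miR-99a-5p (0.940). Without TMM scaling, on log2 RPM, the r of bta-let-7a-5p was 0.417, while that of the other 4 was 0.836 to 0.932. For bta-miR-146b they were bta-miR-454 (0.877), bta-miR-2478 (0.858), bta-miR-1271 (0.828), bta-miR-2285aa (0.792) and bta-miR-144 (0.775), the last an erythrocyte marker. For bta-miR-155 they were bta-miR-1468 (0.960), bta-miR-223 (0.938), bta-miR-2285t (0.928) and the pair bta-miR-2284aa and bta-miR-2284z, which hold the same reads (0.919). The level of bta-miR-1468 was 44.6 RPM in HG replicate 2 and 99.4 to 178 RPM in the other 7 libraries, the same library being lowest as for bta-miR-155.

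Over the 7 libraries without HG replicate 2, the likest entries of bta-miR-146a were bta-let-7a-5p (r = 0.855), bta-miR-222 (0.817), bta-miR-6119-3p (0.807), bta-miR-30e-5p (0.804) and bta-miR-455-3p (0.785). Each of these entries, like bta-miR-146a, had its highest RPM of the 7 libraries in forage replicate 3, so that library weighed heavily here. On log2 RPM the r of bta-miR-30e-5p was 0.373, and that of the other 4 was 0.718 to 0.817. For bta-miR-146b they were bta-miR-183 (0.915), bta-miR-143 (0.894), bta-miR-27a-3p (0.882), bta-miR-2285aa (0.852) and bta-miR-126-3p (0.852). For bta-miR-155 they were bta-miR-2285t (0.890), bta-miR-1468 (0.826), bta-miR-874 (0.795), bta-miR-218 (0.779) and bta-miR-330 (0.761). Both lists thus held bta-let-7a-5p and bta-miR-6119-3p for bta-miR-146a, bta-miR-2285aa for bta-miR-146b, and bta-miR-2285t and bta-miR-1468 for bta-miR-155. The 7 libraries are part of the 8, so the lists are not independent. Few reads stood behind bta-miR-2285aa (103 over the 8 libraries, 5.95 RPM in HG replicate 2) and bta-miR-2285t (125 reads, 0 RPM in HG replicate 2). Among the 3 miRNAs themselves, r over 8 libraries was −0.42 for bta-miR-146a with bta-miR-146b, −0.66 for bta-miR-146a with bta-miR-155 and 0.28 for bta-miR-146b with bta-miR-155. On log2 RPM these values were −0.61, −0.70 and 0.63. Over 7 libraries they were 0.15, 0.56 and −0.44 on log2 CPM and 0.12, 0.53 and −0.50 on log2 RPM, so that each of the 3 had the opposite sign without HG replicate 2. bta-miR-146a and bta-miR-155 both had their highest RPM of these 7 libraries in forage replicate 3.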

How the data were processed

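Small RNA of rumen fluid was sequenced as 1 library for each of 4 cows on each of 2 diets. Per the labels and the study's methods, reads were demultiplexed with bcl2fastq 2.20, trimmed with Skewer, and assigned with sRNAbench and Bowtie to UMD3.1 and to bovine and human miRBase entries, without pooling. For each entry, the authors deposited the read count (a read mapping to several entries counts in full at each), an expected count, which splits these reads evenly over the entries, an RPM value relative to all reads, and a score of the same kind relative to miRNA reads, which sums to over 1000000 in each library. The deposited table of normalized values was not used here.

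Library totals were recovered from the deposited RPM values and scores, and RPM of miRNA reads was computed with them. An entry was tested if any library held 10 or more of its reads. The diet was tested on the read counts with edgeR 4.0.16 in R 4.3.3 (TMM, glmQLFit, glmQLFTest, two-sided, cow and diet in the model, Benjamini-Hochberg over 377 entries, threshold 0.05). The alternatives were DESeq2 1.42.0, library sizes alone, no minimum of reads, expected counts rounded to whole numbers, the removal of 88 human entries with the reads of a bovine entry, no replicate block, and libraries left out. The fit without forage replicate 3 was added after the data were seen. The edgeR steps were tested on simulated data. Other steps used Python 3.11.15, numpy 2.4.6, pandas 2.3.3 and scipy 1.17.1.

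Same-numbered libraries were paired as 1 cow, from the labels and the design. Their deviations from the diet mean correlated at −0.08 to 0.06, those of different numbers at −0.16 to 0.21, so the data do not show the pairing. The 3 miRNAs, the lists and the tests were chosen with earlier results of these data known. Named miRNAs are the 3, all entries of their families, for each the 5 likest bovine entries by Pearson's r of log2 CPM (TMM, prior count 1), and list members, of which 2 to 4 of the most abundant of each list are given with values. bta-miR-132, miR-142-3p, miR-200b and miR-214 were named after their values were seen. So were bta-miR-2285ak-5p and bta-miR-2285bh, which were called in the fit without cow 2. Depth was 300116 to 522804 miRNA reads, which limits bta-miR-155 to 74 to 174 reads and bta-miR-146b to 86 to 175 reads per library.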

Additional observations from a re-analysis of the deposited data

Results flagged for a closer look

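In 6 groups of 4 libraries, 1 for each of the 3 miRNAs on each diet, the highest or the lowest library was compared with the others by Dixon's ratio of the gap to the whole range against the 95% critical value for 4 values, which chance exceeds in about 1 in 20 groups. Both groups of bta-miR-146a exceeded it. On the forage diet, replicate 3 had 1210 RPM, with a ratio of 0.929. On the HG diet, replicate 2 had 1455 RPM, with a ratio of 0.846. The other 4 groups stayed below the critical value.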

How the results depend on the processing

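For the diet effect, the direction was kept in 10 of 12 alternatives for bta-miR-146a, 11 of 12 for bta-miR-146b and 12 of 12 for bta-miR-155, and in 0 of them did any of the 3 pass the threshold (edgeR or DESeq2 adjusted p 0.739 to 0.999). The log2 fold change turned to −0.079 for bta-miR-146a without HG replicate 2 and without the block. Leaving out each cow in turn gave −0.10 to 0.30 for bta-miR-146a (lowest without cow 2), −0.078 to 0.13 for bta-miR-146b (lowest without cow 4) and −0.16 to −0.024 for bta-miR-155. Without forage replicate 3 and without the block, bta-miR-146a had 0.27. The cause of these turns was not tested.

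Without the replicate block, the log2 fold changes were 0.17, 0.07 and −0.11 for bta-miR-146a, bta-miR-146b and bta-miR-155, and the pairing changed no call.

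The mean difference within cows was −34.3 RPM for bta-miR-146a and −12.8 RPM for bta-miR-146b relative to all reads, and −14.6 RPM for bta-miR-155, with an exact permutation p of 0.625 in place of the smallest possible. Leaving out each cow in turn gave −67.9 to 188 RPM, −26.8 to 34.1 RPM and −41.6 to −5.51 RPM in the order above. The number of entries called by diet was 0 to 2 when each cow was left out. The 2 calls, bta-miR-2285ak-5p and bta-miR-2285bh without cow 2 (edgeR adjusted p = 0.0281), rest on the reads of 1 library, and 0 entries were called otherwise.

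Depth limited the single libraries, as their Wilson intervals give. The standard error of the diet effect did not follow depth: it was 0.19 for bta-miR-146a, with 277 to 552 reads per library, and 0.11 for bta-miR-155, with 74 to 174, and it was 0.089 for bta-miR-146a without cow 2.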
